A study of Mus musculus with 8 samples.

Results

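The genes described here are 10 immediate early genes: Fos, Fosb, Jun, Junb, Egr1, Egr2, Egr3, Ier2, Atf3 and Dusp1. Every probe set that the platform annotation gives one of these symbols was taken, which gave 13 probe sets for 10 genes out of 45101 probe sets on the array, 34945 of which carry 1 gene symbol. Jun, Egr2 and Egr3 had 2 probe sets each and the other 7 genes had 1. In the RefSeq annotation of GRCm38.p6, Fos lies at chr12:85473890-85477274, Jun at chr4:95049036-95052222, Egr2 at chr10:67534469-67542188, Egr3 at chr14:70077317-70082613 and Atf3 at chr1:191170296-191183333.

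The arrays held total RNA of conventional dendritic cells, the antigen-presenting cells that take up material in the spleen and show it to T cells. The cells were sorted as CD8α+ or CD8α- from spleens of untreated female C57BL/6 mice, either wild type or RAG2-/-. RAG2 is needed to assemble antigen receptors, so RAG2-/- mice have no mature T or B cells. The sample labels give an age of 10 weeks. There were 4 groups of 2 arrays (wild type CD8α-, wild type CD8α+, RAG2-/- CD8α-, RAG2-/- CD8α+), 8 in all. The labels do not say whether the numbered replicates are separate mice, and p-values here measure only the spread between arrays, possibly technical. They also give no sort date and no time from spleen to lysis.

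Immediate early genes are transcribed within minutes of a signal, without new protein synthesis, and their mRNAs are short-lived. Kinase cascades reach transcription factors that already sit at these genes, and the products are mostly transcription factors themselves: Fos and Jun proteins pair to form AP-1, and the Egr proteins are zinc-finger factors. The same genes respond to tissue digestion and cell sorting, so in sorted cells their level can carry both the animal's state and the handling of the sample.

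The regions just before the annotated start of a few members are shown because cyclic AMP response elements, the sites that CREB and ATF factors bind, recur there. RefSeq promoter entries matched 7 of the 10 genes (11 entries, GRCm38.p6). Each of the sequences below is the 200 bases before the start, with the core site TGACG (or CGTCA on the other strand) in capitals. The Dusp1 run TGACGTCA is the full palindromic site, in which a core on each strand overlaps the other.
Fos (chr12:85473690-85473889, + strand): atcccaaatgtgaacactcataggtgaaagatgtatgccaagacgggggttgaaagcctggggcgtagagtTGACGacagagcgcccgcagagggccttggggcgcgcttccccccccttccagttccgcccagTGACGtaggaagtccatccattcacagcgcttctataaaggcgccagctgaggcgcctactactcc
Junb (chr8:84978749-84978948, - strand): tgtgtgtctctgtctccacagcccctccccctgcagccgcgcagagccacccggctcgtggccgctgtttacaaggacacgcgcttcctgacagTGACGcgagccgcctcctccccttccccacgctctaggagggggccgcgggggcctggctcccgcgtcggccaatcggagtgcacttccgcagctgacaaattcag
Atf3 (chr1:191183334-191183533, - strand): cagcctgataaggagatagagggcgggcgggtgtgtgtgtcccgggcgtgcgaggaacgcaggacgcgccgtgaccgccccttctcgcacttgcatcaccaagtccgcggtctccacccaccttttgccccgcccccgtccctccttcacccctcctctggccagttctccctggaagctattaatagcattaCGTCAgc
Dusp1 (chr17:26508473-26508672, - strand): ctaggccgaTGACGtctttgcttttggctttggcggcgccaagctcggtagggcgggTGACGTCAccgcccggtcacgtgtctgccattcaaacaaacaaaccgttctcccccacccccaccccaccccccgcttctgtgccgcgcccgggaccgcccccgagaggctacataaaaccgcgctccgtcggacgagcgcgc
The first bases of the core sites lie 129 and 66 bases before the start in Fos, 106 in Junb, 7 in Atf3 and 191, 143 and 140 in Dusp1.

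The whole RefSeq entry runs from 250 bases before the start to 50 after it. On either strand, 6 of the 7 matched genes held a core site in at least 1 entry, Jun being the one without. Counted by entry and not by gene, 20.8% of all 32851 entries held one. A gene with several entries has more chances of a core site. For Egr2, 3 of 5 entries held it. The full site TGACGTCA was in 1 gene, Dusp1, and in 1.79% of all entries. A match is a stretch of letters and no evidence that a factor was bound. No array value bears on these sites.

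The cells carried the dendritic cell transcripts their labels call for. The receptors and transcription factors Itgax, Zbtb46 and Flt3 were at 10.27 or higher on every array (deposited log2 expression values, used throughout). Cd8a was between 11.73 and 12.51 on the 4 CD8α+ arrays and between 5.80 and 7.70 on the 4 CD8α- arrays. The genotypes, however, were evidently normalized apart. The 4 RAG2-/- arrays share a lowest value of 2.23 at which 40.4% to 41.9% of their probe sets sit, while the lowest values of the wild type arrays lie between 1.16 and 1.17. Of the 14603 named probe sets that reached log2 5 on at least 2 arrays, 500 gave the same value on 3 or more RAG2-/- arrays and 30 did so on 3 or more wild type arrays. Each genotype comparison below carries that difference.

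A gene was tested if it reached log2 5 on at least 2 of the 8 arrays, which 11 of the 13 probe sets and 9 of the 10 genes did. The one probe set of Fosb, a Fos relative that pairs with Jun proteins, was between 2.12 and 2.14 on wild type arrays and at 2.23 on all RAG2-/- arrays. The Egr3 probe set 1421486_at was between 1.47 and 1.49 on wild type arrays and at 2.23 on all RAG2-/- arrays. Both sit at the floor of the RAG2-/- arrays, so their gap between genotypes is that of the floor, and neither was tested. For genes with 2 probe sets past the threshold the one with the higher mean over the 8 arrays was used, and the other is given beside it. Tests are limma fits over all 8763 genes with Benjamini-Hochberg adjustment, and a gene is called at an adjusted p under 0.05.

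**Figure D1:**
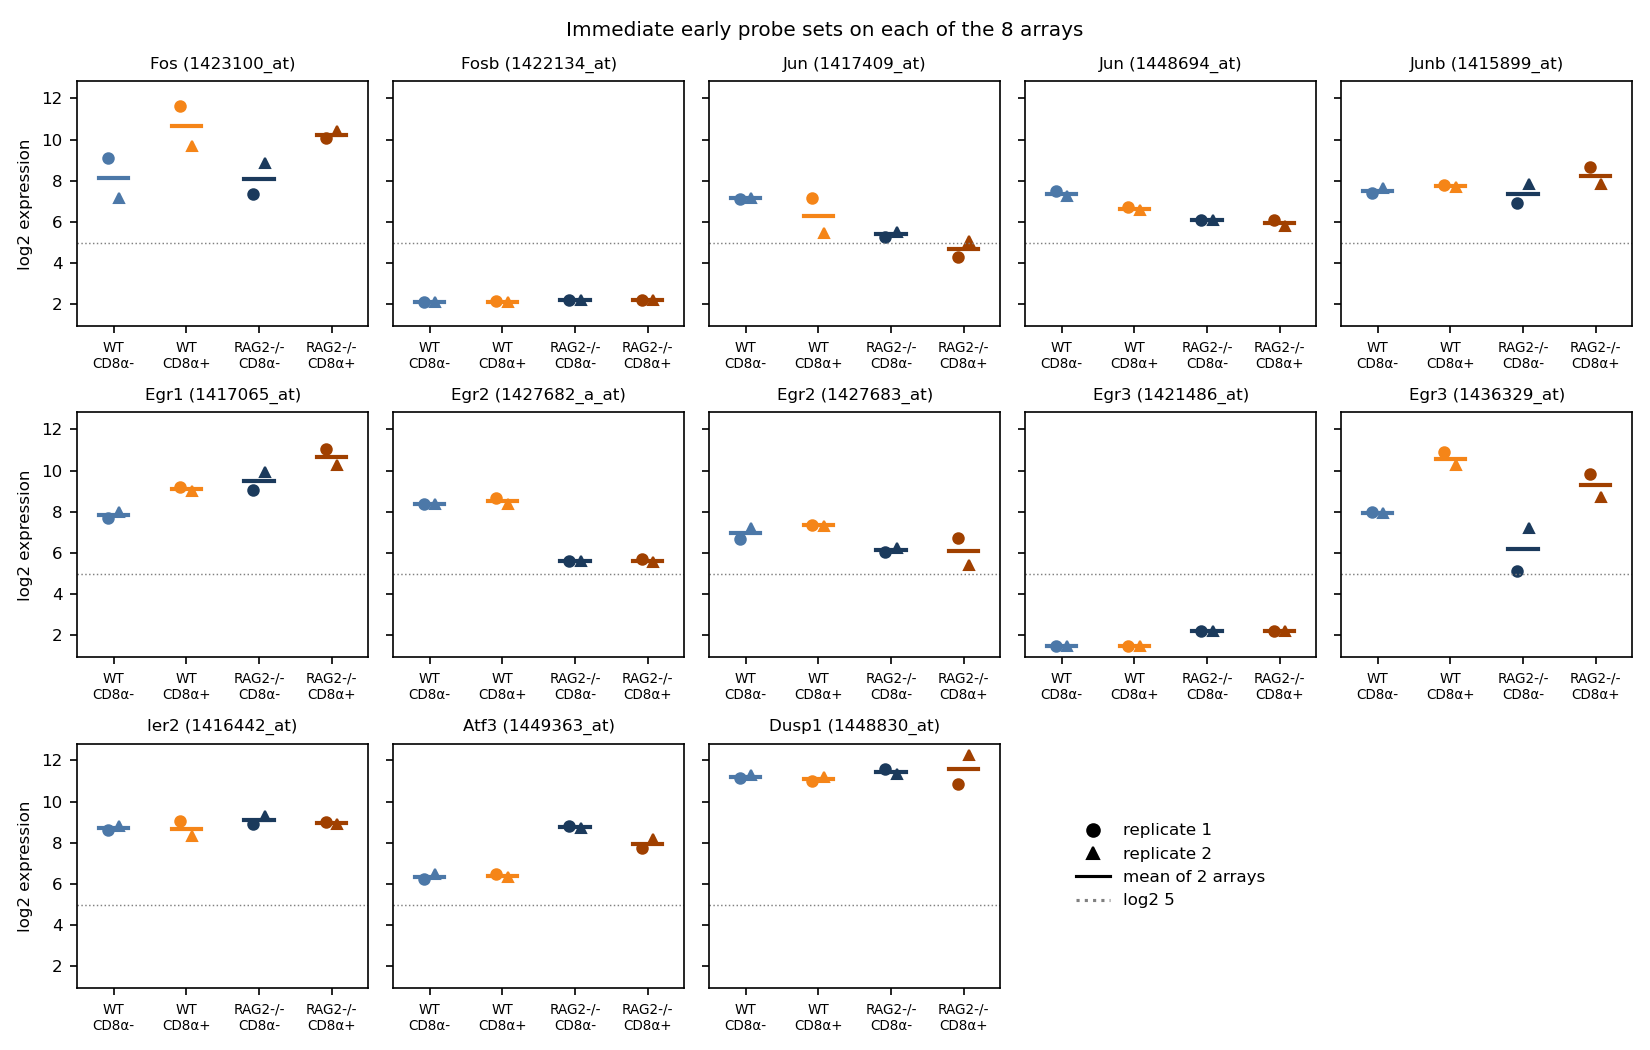
Deposited log2 expression (y axis) of the 13 immediate early probe sets on each array, with replicate 1 as circles, replicate 2 as triangles, a bar at the mean of 2 arrays and a dotted line at log2 5. Fos and Egr3 (1436329_at) were higher on both CD8α+ arrays than on both CD8α- arrays of the same genotype, Egr2 (1427682_a_at) was lower on the RAG2-/- arrays, and Fosb and Egr3 (1421486_at) lay near 2 or below on all 8.

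In wild type cells, 2 of the 9 tested genes were called between the subsets, Egr3 higher and Jun lower in CD8α+ cells. Of all 8763 genes, 17.1% were called in this comparison, 9.23% higher and 7.87% lower. In RAG2-/- cells 2 of 9 were called, Egr3 higher and Atf3 lower in CD8α+ cells, where 21.8% of all genes were called, 11.1% higher and 10.7% lower. The arrays of the compared groups did not overlap for 6 of 9 genes in wild type (60.7% of all genes) and 5 of 9 in RAG2-/- cells (58.1%). These shares are near those of all genes. The members' median absolute difference was 0.23 in wild type and 0.80 in RAG2-/- cells, against 0.34 and 0.41 over all genes tested.

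Egr3, an Egr factor that in lymphocytes is induced through antigen receptors, had the largest difference between subsets among the members in both genotypes. Its probe set 1436329_at read 7.99 and 7.93 on the wild type CD8α- arrays and 10.87 and 10.28 on the wild type CD8α+ arrays. On the RAG2-/- arrays it read 5.13 and 7.22 in CD8α- cells and 9.85 and 8.73 in CD8α+ cells. Every CD8α+ array lay above every CD8α- array, of either genotype. Egr3 rose by 2.62 ± 0.67 (SE, n = 2 arrays per group, 6.14-fold, limma adjusted p = 0.0370) from CD8α- to CD8α+ wild type cells and by 3.11 ± 0.67 (8.65-fold, limma adjusted p = 0.0168) in RAG2-/- cells. The wild type call was lost in 6 of 21 alternatives (limma adjusted p up to 0.199), among them each that left out 1 of the 4 wild type arrays (limma adjusted p 0.116 to 0.175, with differences from 2.32 to 2.92). The RAG2-/- call was lost in 3 of 21: without CD8α+ replicate 1 (2.55, limma adjusted p = 0.102), with the 2 groups fitted alone (limma adjusted p = 0.127) and with no filter (limma adjusted p = 0.113). The other Egr3 probe set, at the floor, shows none of this. The platform annotation gives the floor probe set a RefSeq accession and gives 1436329_at none.

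Fos, the AP-1 subunit whose mRNA is among the fastest to appear and disappear, read 9.09 and 7.14 on wild type CD8α- arrays and 11.64 and 9.71 on wild type CD8α+ arrays. On RAG2-/- arrays it read 7.34 and 8.86 in CD8α- cells and 10.07 and 10.39 in CD8α+ cells. The subsets did not overlap in either genotype, yet replicates of 1 group differed by up to 1.95. The fitted difference was 2.56 ± 0.85 in wild type (SE, limma adjusted p = 0.0883) and 2.13 ± 0.85 in RAG2-/- cells (limma adjusted p = 0.124), neither called. No alternative setting made a call of it in either genotype.

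Egr1, the zinc-finger factor most used as a marker of recent stimulation, read 7.68 and 7.99 on the wild type CD8α- arrays and 9.22 and 9.01 on those of wild type CD8α+ cells. RAG2-/- arrays read 9.05 and 9.92 in CD8α- and 11.04 and 10.26 in CD8α+ cells. Within each genotype both CD8α+ arrays were above both CD8α- arrays. The difference of 1.28 ± 0.36 in wild type (limma adjusted p = 0.0523) and of 1.17 ± 0.36 in RAG2-/- cells (limma adjusted p = 0.0600) missed the threshold. It was called in 13 of the 21 alternative settings in wild type and in 5 of 21 in RAG2-/- cells.

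Jun, the partner of Fos in AP-1, read 7.48 and 7.25 on the wild type CD8α- arrays and 6.74 and 6.56 on those of wild type CD8α+ cells (1448694_at). Jun fell by 0.72 ± 0.19 (SE, limma adjusted p = 0.0407) from CD8α- to CD8α+ wild type cells. That call was lost in 13 of 21 alternatives, among them each that left out 1 wild type array (limma adjusted p 0.0847 to 0.201). The second Jun probe set, 1417409_at, overlapped between the subsets, at 7.12 and 7.16 against 7.16 and 5.46. Jun in RAG2-/- cells differed by -0.14 ± 0.19 between subsets (limma adjusted p = 0.636).

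Junb, a Jun relative that competes with Jun in AP-1, read 7.38 and 7.64 in wild type CD8α- and 7.80 and 7.69 in wild type CD8α+ cells. RAG2-/- arrays read 6.91 and 7.82 in CD8α- and 8.67 and 7.83 in CD8α+ cells. The 0.89 ± 0.37 difference in RAG2-/- cells (limma adjusted p = 0.139) was not called, and its 2 groups nearly met, at 7.82 and 7.83.

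Atf3, a stress-induced factor of the CREB/ATF family that can hold back inflammatory genes, showed a difference between subsets of 0.04 ± 0.20 in wild type cells (limma adjusted p = 0.949), with overlapping arrays. It fell by 0.80 ± 0.20 (SE, limma adjusted p = 0.0321) from CD8α- to CD8α+ cells of RAG2-/- mice. The call was lost on leaving out any 1 array other than CD8α+ replicate 2 of RAG2-/- cells, with limma adjusted p from 0.0508 to 0.134. It was also lost when the 2 groups were fitted alone (limma adjusted p = 0.108).

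**Figure D2:**
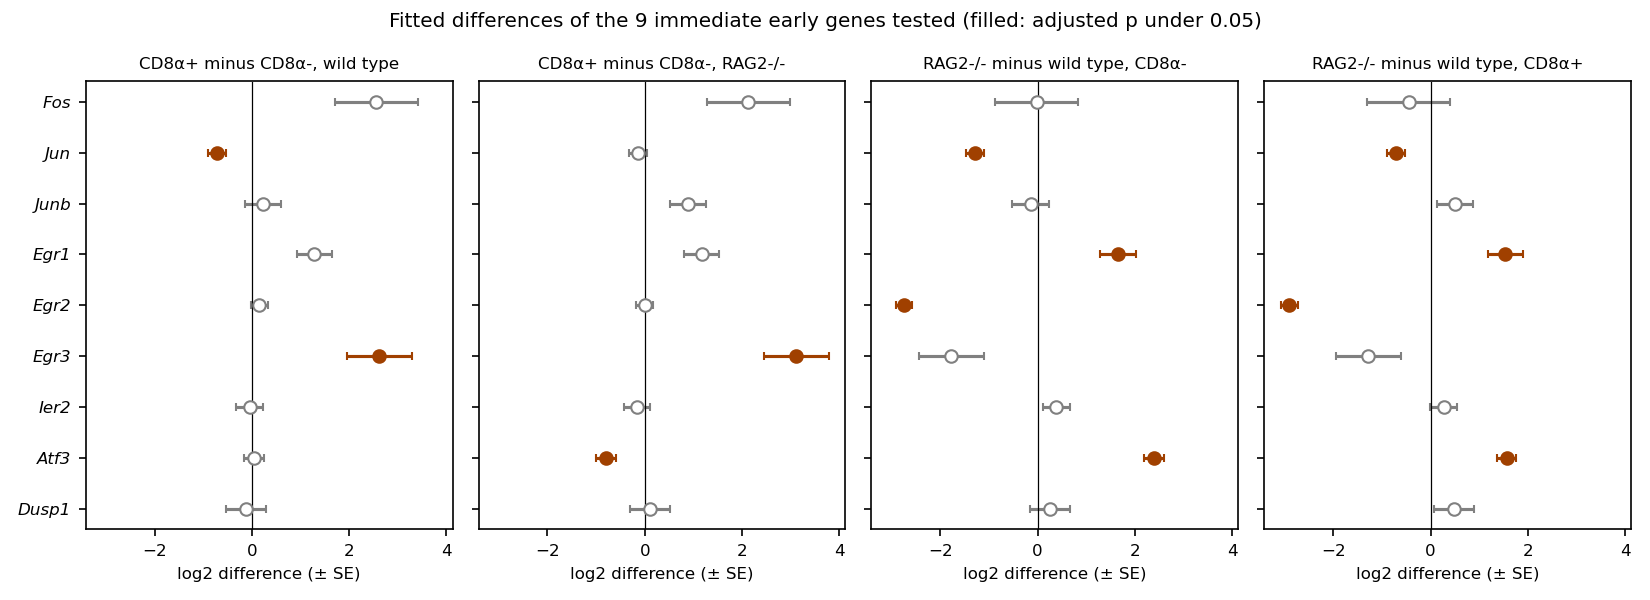
Fitted log2 differences (x axis, point ± SE, 2 arrays per group) of the 9 tested immediate early genes in the 4 comparisons of groups, filled where the limma adjusted p was under 0.05. Egr3 was called between subsets in both genotypes, and Jun, Egr1, Egr2 and Atf3 were called between genotypes in both subsets.

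Between genotypes, 4 of the 9 genes were called in each subset, and they were the same 4 with the same signs: Egr1 and Atf3 higher, Jun and Egr2 lower in RAG2-/- cells. Of all genes, 40.5% were called in CD8α- cells (23.4% higher, 17.1% lower) and 36.9% in CD8α+ cells (20.8% higher, 16.1% lower), so 4 of 9 is close to the share over all genes. The 2 subsets' arrays are separate samples, but both comparisons set arrays of 1 processing against arrays of the other. The arrays did not overlap for 7 of 9 members in CD8α- cells (74.4% of all genes) and 6 of 9 in CD8α+ cells (72.1%). The members' median difference was -0.02 in CD8α- and 0.27 in CD8α+ cells, against 0.14 and 0.09 over all genes. Centring each array brought the median over all genes to 0.03 in CD8α- cells and left the 4 calls in both subsets. The members did not share a direction.

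Egr2, which in T cells limits activation together with Egr3, was the member with the largest difference between genotypes. Its probe set 1427682_a_at read 8.37 and 8.35 in wild type CD8α- and 8.64 and 8.39 in wild type CD8α+ cells. On RAG2-/- arrays it read 5.62 and 5.62 in CD8α- and 5.68 and 5.55 in CD8α+ cells. The 2 RAG2-/- CD8α- arrays differed by only 0.0002, so they add almost nothing to the error of the fit. That error rests on the other groups and on the spread over all genes, toward which limma draws each gene's own. No wild type array was below 8.35 and no RAG2-/- array above 5.68. Egr2 fell by 2.75 ± 0.17 (SE, 6.71-fold lower, limma adjusted p = 0.000282) in CD8α- cells and by 2.90 ± 0.17 (7.48-fold lower, limma adjusted p = 0.000250) in CD8α+ cells of RAG2-/- mice, and was called under each of the 21 alternatives.

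The second Egr2 probe set, 1427683_at, differed less. It read 6.68, 7.21, 7.36 and 7.32 on the wild type arrays and 6.06, 6.25, 6.72 and 5.44 on the RAG2-/- arrays. Fitted over all 14603 probe sets, of which 37.6% were called in CD8α- and 35.8% in CD8α+ cells, it differed by -0.79 ± 0.41 (limma adjusted p = 0.168) and -1.26 ± 0.41 (limma adjusted p = 0.0509). The sign was that of the first probe set in both subsets, but neither difference was called, so the size of the Egr2 difference depends on the probe set.

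Atf3 read 6.24 and 6.47 on the wild type CD8α- arrays and 6.47 and 6.31 on those of wild type CD8α+ cells. On RAG2-/- arrays it read 8.80 and 8.70 in CD8α- and 7.75 and 8.16 in CD8α+ cells. All 4 RAG2-/- arrays were above all 4 wild type arrays by more than 1 unit of log2. Atf3 rose by 2.40 ± 0.20 (SE, 5.27-fold, limma adjusted p = 0.000521) in CD8α- cells and by 1.56 ± 0.20 (2.95-fold, limma adjusted p = 0.00232) in CD8α+ cells, again in each of the 21 alternatives. Atf3 was also the member with the smallest unadjusted p for a genotype difference that depended on the subset. The interaction, the RAG2-/- difference in CD8α+ cells minus the one in CD8α- cells, was -0.83 ± 0.29 (limma unadjusted p = 0.0223, adjusted p = 0.546).

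Egr1 rose by 1.65 ± 0.36 (SE, 3.14-fold, limma adjusted p = 0.0115) in CD8α- cells and by 1.54 ± 0.36 (2.91-fold, limma adjusted p = 0.0164) in CD8α+ cells of RAG2-/- mice. The genotypes did not overlap within either subset, although wild type CD8α+ arrays (9.22 and 9.01) met RAG2-/- CD8α- arrays (9.05 and 9.92). The CD8α- call was lost without wild type CD8α- replicate 1 (1.50, limma adjusted p = 0.0804). The CD8α+ call was lost without wild type CD8α+ replicate 1 (1.65, limma adjusted p = 0.0673) or replicate 2 (1.43, limma adjusted p = 0.0827), or RAG2-/- CD8α+ replicate 1 (1.15, limma adjusted p = 0.0827).

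Jun (1448694_at) read 6.08 on 3 of the 4 RAG2-/- arrays, the same value to 4 decimals, and 5.79 on the fourth, against 6.56 to 7.48 on wild type arrays. Such repeats on 3 or more arrays were found for 500 named probe sets in RAG2-/- and 30 in wild type cells. Whether 6.08 is a measured level or a product of the processing was not tested. The arrays of the RAG2-/- CD8α- group thus show no spread, and the error of the fit comes from the other groups and from the spread over all genes. Jun fell by 1.29 ± 0.19 (SE, limma adjusted p = 0.00292) in CD8α- cells, in each of the 21 alternatives. It fell by 0.71 ± 0.19 (SE, limma adjusted p = 0.0243) in CD8α+ cells, a call lost in 6 of 21. Those were quantile normalization (limma adjusted p = 0.0711), the trended robust fit, the 2 groups alone, and leaving out wild type CD8α+ replicate 1 (limma adjusted p = 0.109), wild type CD8α+ replicate 2 (0.0549) or RAG2-/- CD8α+ replicate 2 (0.101). The second probe set, 1417409_at, was also lower, at 5.26, 5.53, 4.31 and 5.09 on RAG2-/- arrays. Its difference was -1.74 ± 0.53 (limma adjusted p = 0.0399, over all probe sets) in CD8α- cells and -1.61 ± 0.53 (limma adjusted p = 0.0532) in CD8α+ cells.

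Fos differed between genotypes by -0.02 ± 0.85 in CD8α- cells (limma adjusted p = 0.990) and by -0.44 ± 0.85 in CD8α+ cells (limma adjusted p = 0.709), with overlapping arrays in both subsets. At this error even the Fos differences between subsets, 2.56 in wild type and 2.13 in RAG2-/- cells, were not called. A genotype difference well above 1 unit of log2, either way, could thus be missed. Egr3 differed by -1.78 ± 0.67 in CD8α- cells (limma adjusted p = 0.0710) and -1.29 ± 0.67 in CD8α+ cells (limma adjusted p = 0.171), without overlap within either subset. Ier2, an early gene whose product is a nuclear regulator, was between 8.33 and 9.31 on all 8 arrays, and none of its comparisons was called. Dusp1, the phosphatase that switches off p38 and JNK kinases, was between 10.86 and 12.28 and was not called in any comparison either.

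No member was called in the interaction, where 0.24% of all genes (21 of 8763) were, and 1 of the 9 had an unadjusted p under 0.05. In simulated data with known differences this comparison recovered 39% of planted differences of 2 units of log2 and 1% of those of 1 unit.

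Across the 2 replicates of a group, Fos was among the most variable genes. Replicate 1 exceeded replicate 2 by 1.95 in the CD8α- and by 1.94 in the CD8α+ group of wild type mice, at the 99.8th percentile of absolute replicate differences over all genes in both. On RAG2-/- arrays replicate 2 exceeded replicate 1 by 1.52 in CD8α- (97.5th percentile) and 0.32 in CD8α+ cells (57.3rd percentile). Egr3 differed more than Fos on the RAG2-/- arrays, with replicate 2 higher by 2.09 in CD8α- (99.0th percentile) and replicate 1 higher by 1.13 in CD8α+ cells (96.6th percentile). Dusp1 was higher by 1.42 in replicate 2 of RAG2-/- CD8α+ cells (98.4th percentile). In wild type CD8α- cells replicate 1 was the higher for 4 members and replicate 2 for 5. For the wild type CD8α+ pair, replicate 1 had the higher value in 8 of 9 members. The share of all genes higher in replicate 1 was not computed, so these counts carry no reading about the members. The members' median absolute replicate difference was 0.22 and 0.21 in the wild type CD8α- and CD8α+ groups, against 0.20 and 0.23 over all genes, and 0.40 and 0.41 in the RAG2-/- groups, against 0.28 and 0.27.

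The heat shock genes Hspa1a and Hspa1b, whose products are inducible chaperones, differed between replicates too. Hspa1a read 9.18 and 7.31 on the wild type CD8α- arrays, 10.52 and 8.15 on those of wild type CD8α+ cells, 7.56 and 7.07 in RAG2-/- CD8α- cells and 4.74 and 9.26 in RAG2-/- CD8α+ cells. Hspa1b read 13.23 and 11.35, 13.71 and 11.91, 11.55 and 11.47, and 9.35 and 12.95 in the same order. The genes are near-identical copies, so their probe sets may not separate them. On the wild type arrays they were higher in the same replicates as Fos, and by a like amount: 1.87 and 2.37 for Hspa1a. On the RAG2-/- CD8α+ arrays Hspa1a differed by 4.52 while Fos differed by 0.32. Over the 8 arrays Pearson's r with Fos was 0.39 for Hspa1a and 0.36 for Hspa1b, a description over arrays that differ in subset and processing. Other chaperone genes of the list were mixed on wild type arrays. Hspa4 was higher in replicate 1, as Fos was, by 0.37 (CD8α-) and 0.20 (CD8α+). Hsp90aa1, Hspe1 and Dnajb4 changed direction between the 2 wild type groups. Some ran the other way from Fos. Hsph1 was higher in replicate 2 of all 4 groups, by 1.37 (CD8α-) and 1.28 (CD8α+) in wild type mice and by 1.69 (CD8α-) and 1.32 (CD8α+) in RAG2-/- mice. Dnaja1 (0.56 to 1.14) and Hspd1 (0.34 to 0.87) were also higher in replicate 2 of each group.

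**Figure D3:**
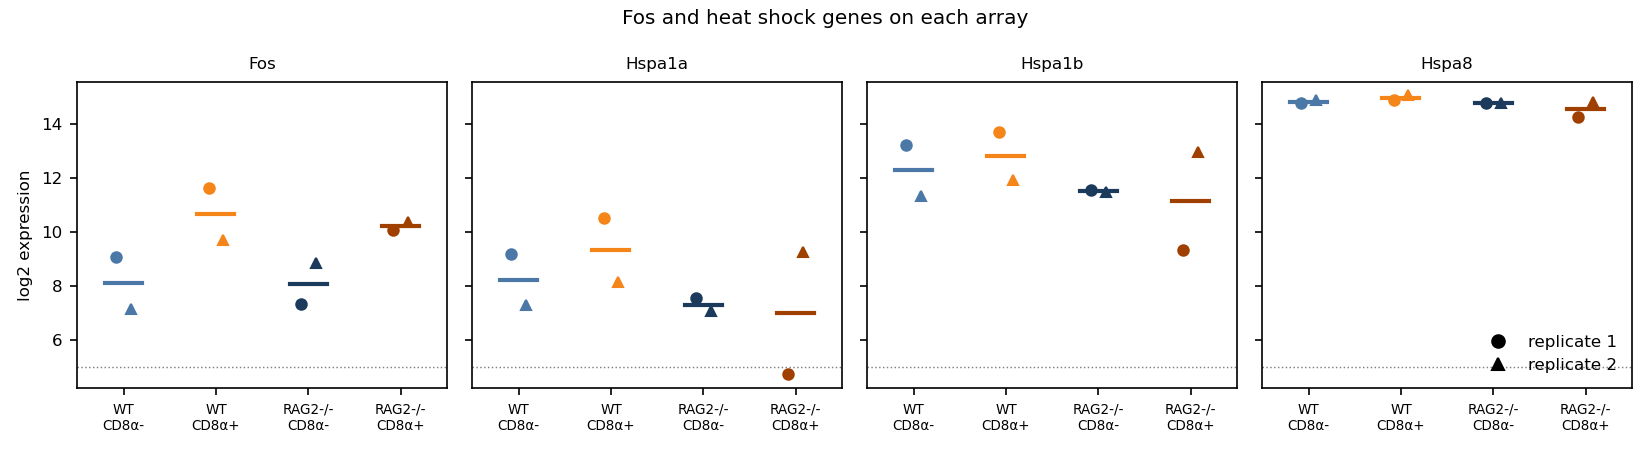
Deposited log2 expression (y axis) of Fos and of the chaperone genes Hspa1a, Hspa1b and Hspa8 on each array, replicate 1 as circles and replicate 2 as triangles, with a bar at the mean of 2 arrays. In both wild type groups Fos, Hspa1a and Hspa1b were higher in replicate 1, while in RAG2-/- CD8α+ cells Hspa1a was 9.26 in replicate 2 and 4.74 in replicate 1 and Fos differed by 0.32.

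Of 13 heat shock and chaperone genes tested, none was called higher and 1, Dnajb4, lower in CD8α+ cells of each genotype (-1.70 ± 0.34, limma adjusted p = 0.0136, and -1.76 ± 0.34, limma adjusted p = 0.0107). Of all genes, 9.23% were called higher and 7.87% lower between wild type subsets, and 11.1% and 10.7% between RAG2-/- subsets. Between genotypes 1 was called higher and 1 lower in each subset. The shares over all genes were 23.4% higher and 17.1% lower in CD8α- cells, and 20.8% and 16.1% in CD8α+ cells. Hmox1, the haem-degrading enzyme, which macrophages also express strongly, rose by 4.27 ± 0.70 (limma adjusted p = 0.00421) in CD8α- and 3.70 ± 0.70 (limma adjusted p = 0.00769) in CD8α+ cells of RAG2-/- mice. Hspa4 fell by 0.62 ± 0.20 (limma adjusted p = 0.0455) and 1.07 ± 0.20 (limma adjusted p = 0.00779). Hspa1a and Hspa1b were not called in any comparison.

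Other cell types' transcripts differed between the genotypes as well. Of 14 macrophage and monocyte markers on the array, 7 to 8 reached log2 5 on a wild type array and 12 to 13 on a RAG2-/- array, and their summed level (log2 of the sum of linear values) was 12.75 to 13.76 and 14.14 to 15.72. Cd14 lay between 2.17 and 2.53 on wild type arrays and between 8.38 and 10.39 on RAG2-/- arrays. Of these markers, 12 of 12 tested were called higher in RAG2-/- CD8α- cells (23.4% of all genes) and 11 of 12 in CD8α+ cells (20.8%). Cd14, C1qa, C1qc and Cd163 were below log2 5 on every wild type array, so they were tested only through the RAG2-/- arrays. Hmox1 was below it on wild type arrays other than CD8α+ replicate 1 (5.56). For such genes a call of higher was largely set by the filter. Macrophages can express Egr1, Atf3 and Dusp1 too, and the part of such cells in these genes' genotype differences was not tested. Fewer cells of a type and less RNA per cell cannot be told apart in bulk samples. Of 11 B and plasma cell markers, 5 to 6 reached log2 5 on wild type arrays and 1 to 2 on RAG2-/- arrays, with summed levels of 10.96 to 12.05 and 8.17 to 8.78. The list was not uniform. Cd79a, Pax5, Ebf1 and Vpreb3 were at 3.34 or lower on every wild type array. Ms4a1 stayed between 5.81 and 7.62 on RAG2-/- arrays, and Cd79b read 8.29 and 7.48 in RAG2-/- CD8α- cells. B cells can express Jun and Egr2; their part in the lower values was not tested either. Of 9 NK cell markers 2 to 3 reached log2 5 on wild type and 3 to 6 on RAG2-/- arrays, of 8 T cell markers 3 to 4 and 1 to 2, and of 4 erythroid markers 0 and 1.

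Neutrophil markers separated the replicates of RAG2-/- cells. Of 16 on the array, 0 or 1 reached log2 5 on wild type arrays, 3 and 11 on RAG2-/- CD8α- replicates 1 and 2, and 8 and 1 on RAG2-/- CD8α+ replicates 1 and 2. Their summed level was 6.86 to 9.36 on wild type arrays and 7.43 to 13.41 on RAG2-/- arrays. The marker S100a8 read 10.69 and 9.81 on the 2 arrays that stand apart and 3.35 to 5.19 on the other 6. On those arrays Egr3, Egr1, Junb and Ier2 were higher than on the other replicate of their group (Egr3 7.22 against 5.13 and 9.85 against 8.73, Ier2 9.31 against 8.91 and 8.99 against 8.91). Dusp1 was lower on both (11.35 against 11.56 and 10.86 against 12.28), as was Atf3 (8.70 against 8.80 and 7.75 against 8.16). Fos was higher on 1 of them (8.86 against 7.34) and lower on the other (10.07 against 10.39). RAG2-/- CD8α- replicate 2 also read higher than replicate 1 for genes high in CD8α+ cells. Among them were Irf8 (13.25 against 11.50), Cd24a (12.81 against 10.58), Tlr3 (9.90 against 8.77) and Cd8a (7.70 against 6.90). Of genes high in CD8α- cells, Cd4 was higher there too (11.23 against 10.00) and Irf4 slightly lower (9.68 against 9.78). What neutrophils or CD8α+ cells contributed to the members' replicate differences was not tested.

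Without the 2 arrays that carried neutrophil transcripts, Atf3 differed between genotypes by 2.45 (limma adjusted p = 0.00812) in CD8α- and 1.77 (limma adjusted p = 0.0153) in CD8α+ cells. Egr1 differed by 1.21 (limma adjusted p = 0.0250) and 1.15 (limma adjusted p = 0.0315), and Egr2 by -2.75 (limma adjusted p = 0.00741) and -2.97 (limma adjusted p = 0.0127). Jun differed by -1.29 (limma adjusted p = 0.0194) and -0.86 (limma adjusted p = 0.0460). All 4 calls therefore held in both subsets, each with 1 RAG2-/- array per group whose spread is assumed to be that of the other groups. Egr3 was then also called lower in RAG2-/- cells, by -2.83 (limma adjusted p = 0.0110) and -1.85 (limma adjusted p = 0.0223), and Dusp1 higher in CD8α+ cells, by 1.19 (limma adjusted p = 0.0234). Between the subsets of RAG2-/- cells Egr3 differed by 3.60 (limma adjusted p = 0.0105) without them and Atf3 by -0.64 (limma adjusted p = 0.152).

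**Figure D4:**
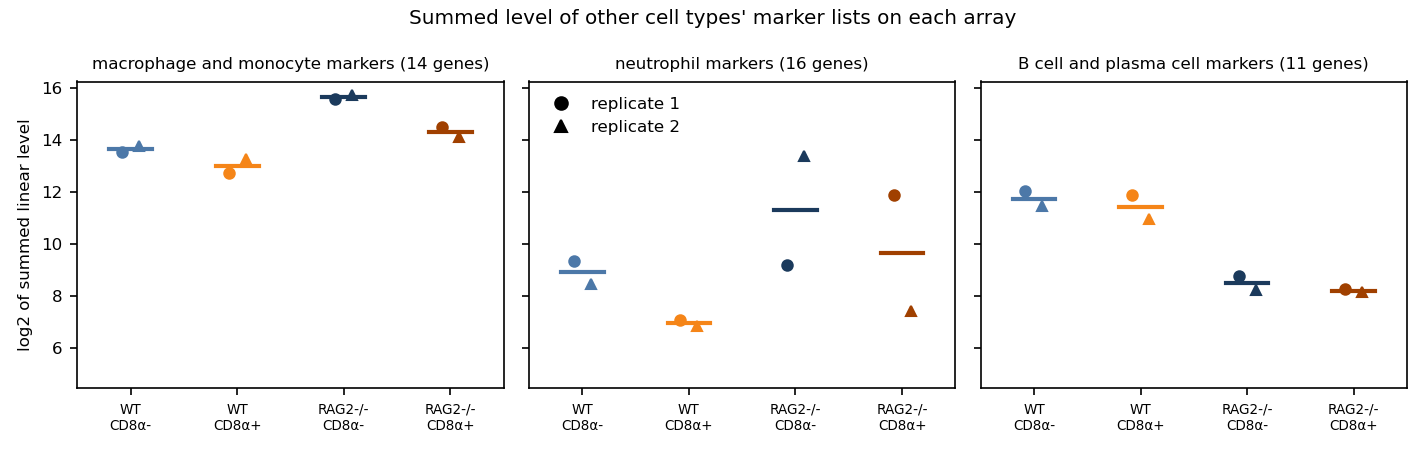
Summed level (log2 of the sum of linear values, y axis) of marker lists of macrophages and monocytes, neutrophils, and B and plasma cells on each array, replicate 1 as circles and replicate 2 as triangles, with a bar at the mean of 2 arrays. RAG2-/- arrays lay above wild type arrays for macrophage markers and below them for B cell markers, and 1 array of each RAG2-/- group stood out for neutrophil markers.

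RNA quality controls also moved with genotype. The gap between the 3' and 5' control probe sets of Gapdh was 4.26 ± 0.85 on wild type and 2.47 ± 0.40 on RAG2-/- arrays (SD, n = 4 arrays each; exact permutation test, 2-sided p = 0.0286, the smallest possible). For Actb it was 1.80 ± 0.36 and 0.95 ± 0.38 (exact permutation test, 2-sided p = 0.0571). A smaller gap means that the labelled RNA reached further toward the 5' end. The labels record no sort batch, and RNA quality and processing differed with genotype, so handling and genotype cannot be told apart for the Egr1, Atf3, Egr2 and Jun differences.

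Other genes of the same class gave a mixed picture. Of 41 further immediate early genes 29 were tested. Counts of calls in these lists are to be read against the shares over all genes given above for each comparison (9.23% higher and 7.87% lower between wild type subsets, 11.1% and 10.7% between RAG2-/- subsets). In wild type CD8α+ against CD8α- cells 3 were higher and 2 lower: Rhob, a small GTPase gene, fell by 2.63 ± 0.35 (limma adjusted p = 0.00243) and Errfi1, an inhibitor of EGF receptor signalling, fell by 1.66 ± 0.16 (limma adjusted p = 0.000709). Tiparp rose by 0.92, the nuclear receptor gene Nr4a3 by 0.75 and Jund by 0.75. In RAG2-/- cells 5 were higher and 6 lower. Klf4, a zinc-finger factor of myeloid cells, fell by 3.22 ± 0.72 (limma adjusted p = 0.0192) and Fosl2, a Fos relative, by 2.70 ± 0.45 (limma adjusted p = 0.00615). Sik1, a kinase gene driven by CREB, rose by 2.08 ± 0.58 (limma adjusted p = 0.0430).

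Between genotypes 9 of the 29 were higher and 6 lower in RAG2-/- CD8α- cells, near the 23.4% and 17.1% of all genes. Per1, a clock gene, rose by 2.25 ± 0.69 (limma adjusted p = 0.0377) and Zfp36l2, which codes for an mRNA decay factor, by 1.54 ± 0.28 (limma adjusted p = 0.00610), while Rhob fell by 2.44 ± 0.35 (limma adjusted p = 0.00266). In CD8α+ cells 4 were higher and 6 lower, where 20.8% and 16.1% of all genes were. Btg2, an antiproliferative gene, rose by 1.46 ± 0.28 (limma adjusted p = 0.00863), and Klf4 fell by 2.33 ± 0.72 (limma adjusted p = 0.0402). The medians over the 29 were -0.05 and 0.12, against 0.14 and 0.09 over all genes.

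Among 12 tested AP-1 partners and relatives, Jdp2, which pairs with Jun and dampens AP-1, was higher in CD8α+ cells of both genotypes, by 1.56 ± 0.28 (limma adjusted p = 0.00985) and 2.32 ± 0.28 (limma adjusted p = 0.00166). The factor gene Cebpd was lower, by -2.25 ± 0.43 (limma adjusted p = 0.0124) and -2.37 ± 0.43 (limma adjusted p = 0.00891). Between genotypes 4 of 12 were higher and none lower in CD8α- cells, and 3 higher and none lower in CD8α+ cells, with 23.4% and 20.8% of all genes higher, so the higher calls are near the share over all genes. Batf3, which CD8α+ dendritic cells need for their development, rose by 1.02 ± 0.18 (limma adjusted p = 0.00567) and 0.83 ± 0.18 (limma adjusted p = 0.0132), and Atf2 by 1.02 ± 0.18 and 0.72 ± 0.18.

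Of 21 tested kinases and factors that act upstream of immediate early genes, 4 were higher and 4 lower in wild type CD8α+ cells. Elk3, a ternary complex factor that partners serum response factor, fell by 2.77 ± 0.27 (limma adjusted p = 0.000686) there and fell by 2.88 ± 0.27 (limma adjusted p = 0.000579) in RAG2-/- cells, where 2 were higher and 3 lower. Nab2, a corepressor of Egr proteins and itself an Egr target, rose by 2.31 ± 0.43 (limma adjusted p = 0.0112) in wild type CD8α+ cells. Nab2 was below log2 5 on every CD8α- array (3.34 to 4.76), so it was tested only through the CD8α+ arrays, where it read 5.34 to 6.55. In RAG2-/- against wild type cells 9 were higher and 3 lower in CD8α- (23.4% and 17.1% of all genes) and 6 higher and 2 lower in CD8α+ cells (20.8% and 16.1% of all genes). Map2k3, a kinase that activates p38, rose by 1.61 ± 0.20 (limma adjusted p = 0.00177) and 1.77 ± 0.20 (limma adjusted p = 0.00158). Nab1, the other Egr corepressor, rose by 1.43 ± 0.18 (limma adjusted p = 0.00173) and 1.23 ± 0.18 (limma adjusted p = 0.00319).

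Of 6 tested phosphatases related to Dusp1, Dusp2 was higher in CD8α+ cells of both genotypes, by 1.73 ± 0.28 (limma adjusted p = 0.00599) and 1.34 ± 0.28 (limma adjusted p = 0.0152), and Dusp3 was called higher in wild type CD8α+ cells, by 1.09 ± 0.20 (limma adjusted p = 0.0110). Dusp10 fell by 1.99 ± 0.35 (limma adjusted p = 0.00560) and Dusp5 by 1.13 ± 0.24 (limma adjusted p = 0.0112) in RAG2-/- CD8α- cells, and none was called between genotypes in CD8α+ cells. Dusp10 read 3.81 and 3.79 on the RAG2-/- CD8α- arrays and 5.35 to 6.22 on wild type arrays. CD8α+ replicate 2, at 5.32, was the only RAG2-/- array at log2 5 or more. Dusp10 was thus tested only through the wild type arrays, where it was high.

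Of 12 early NF-kB response genes, 4 were lower and none higher in wild type CD8α+ cells, and 6 lower and 1 higher in RAG2-/- CD8α+ cells. Nfkbiz, an inducible NF-kB cofactor, fell by 1.88 ± 0.25 (limma adjusted p = 0.00260) and 2.92 ± 0.25 (limma adjusted p = 0.000404) from CD8α- to CD8α+ cells, and the chemokine Ccl3 by 1.16 ± 0.26 (limma adjusted p = 0.0215) and 2.76 ± 0.26 (limma adjusted p = 0.000549). In RAG2-/- against wild type CD8α- cells 4 were higher and 1 lower, with Ccl3 up by 1.58 ± 0.26 (limma adjusted p = 0.00424). Ccl3 reached log2 5 only on the RAG2-/- CD8α- arrays (5.02 and 5.39), so it was tested only through the group where it was high. Its wild type values, 2.46 to 3.91, were all below that threshold, and RAG2-/- CD8α+ arrays read 2.23 and 2.65, at or near the floor. In CD8α+ cells 1 was higher and 1 lower. No gene of any of these lists was called in the interaction.

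The tested genes most like Fos over the 8 arrays, by Pearson's r and as a description only, were Lrrcc1 (0.96), 2310022B05Rik (0.95), Mthfsd (0.94), Dipk2a (0.94) and Ppa1 (0.94), and 20 genes passed 0.9. For Egr1 they were Lacc1 (0.995), Nkiras2 (0.99), Gtf2h1 (0.98), Mgat4b (0.98) and Ptov1 (0.98), and 313 genes passed 0.9. The arrays share subset and processing within groups, which these values carry. Among the members themselves Fos and Egr3 had r = 0.81 and Egr2 and Atf3 r = -0.95 over the same 8 arrays.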

How the data were processed

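Total RNA of 8 sorted samples was measured on Affymetrix mouse arrays. Values deposited by the authors are normalized log2 expression, 1 per probe set and array. GCRMA (all 8 arrays) and affy (4 arrays) stand in the submitters' processing notes without versions, and which arrays were normalized together is not given in the sources used here. Scanner files were not used here. The number of arrays limits the precision.

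Values were used as deposited. Probe sets were named from the platform annotation (932 with several symbols, 9160 with none and 64 controls were left out). Those at log2 5 or more on 2 or more arrays were kept, with 1 probe set per gene (highest mean). A limma 3.58.1 model (R 4.3.3) of the 4 groups gave 5 comparisons. The fit was tested on simulated data. Named genes are the members, at most the 5 called genes of largest change per list and comparison, and the 5 genes most like Fos and Egr1. The members and lists were chosen with earlier results of these data known. Alternatives covered scaling, filter, offset, floor, probe-set rule, model and left-out arrays. Figures used matplotlib 3.10.9 in Python 3.11.15.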

Additional observations from a re-analysis of the deposited data

How the results depend on the processing

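The 12 calls of single members kept their sign in all 21 alternatives, and 5 of them (Egr2 and Atf3 between genotypes in both subsets, Jun in CD8α- cells) stayed called in each. Of the other 25 differences, 6 were called in at least 1 alternative and 10 changed sign in at least 1. The cause of these changes was not tested.

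The count of called members (2 between subsets in each genotype, 4 between genotypes in each subset, 0 in the interaction) became 0 in both subset comparisons with no filter, where 18193 genes were tested. In wild type it was 1 when each probe set was tested. In RAG2-/- cells it was 0 with the 2 groups fitted alone and 1 without the 2 arrays with neutrophil transcripts. Leaving out 1 array gave 0 to 3 in both subset comparisons, 3 to 5 between genotypes in CD8α- cells, 2 to 5 in CD8α+ cells and 0 in the interaction.

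Over all genes, replicate differences were little correlated between groups (Pearson's r from -0.15 to 0.11). Such a value cannot show whether a few genes moved together with the replicate number, as Hsph1, Dnaja1 and Hspd1 did. Whether arrays of the same number were handled together was not tested. With the replicate number as a block the wild type subset count was 1, and the other counts stayed at 2, 4, 4 and 0. With the numbers exchanged in RAG2-/- CD8α+ cells, tried after seeing the data, the counts were 2, 3, 4, 4 and 0.

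Sign changes of differences that were not called were as follows. Egr2 between RAG2-/- subsets was 0.022 after quantile normalization, and Atf3 between wild type subsets -0.023 after median centring. Leaving out 1 array gave these ranges. Between wild type subsets Atf3 ran from -0.073 to 0.15 and Ier2 from -0.40 to 0.31. Between RAG2-/- subsets Ier2 ran from -0.36 to 0.039, Egr2 from -0.071 to 0.065 and Dusp1 from -0.60 to 0.82. Between genotypes in CD8α- cells Fos ran from -0.99 to 0.96 and Junb from -0.60 to 0.31. In CD8α+ cells Fos ran from -1.41 to 0.52, Ier2 from -0.085 to 0.62 and Dusp1 from -0.22 to 1.19.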
